A study of Homo sapiens with 20 samples.

Results

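The 31 genes described here make cholesterol and fatty acids or control that synthesis. They were listed by name and role, with earlier results of these data known. There were 7 enzymes of the mevalonate and isoprenoid steps and 11 enzymes of squalene and the sterol rings. The other genes were 6 of sterol sensing and sterol transport and 7 of fatty acid synthesis and desaturation. All 31 passed the filter on low counts, among 14470 genes tested at day 8 and 14633 genes tested at day 6, and all 31 were detected in each single-cell library.

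Cells build cholesterol from acetyl-CoA by way of mevalonate, isoprenoid units and squalene, and they build fatty acids from the same precursor by way of malonyl-CoA. Both sets of genes are switched on by the transcription factors SREBP2 and SREBP1, encoded by SREBF2 and SREBF1, which the escort protein SCAP carries to the Golgi for cleavage when membrane sterol is low and which the INSIG proteins hold in the endoplasmic reticulum when it is high. The liver, a derivative of endoderm, is a main site of both pathways in the body.

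The study took HUES8, an established human embryonic stem cell line, and GPX2 KO cells made by deleting both copies of the gene in HUES8-iCas9, a HUES8 line with doxycycline-inducible Cas9, towards stem cell-derived beta (SC-beta) cells. GPX2 is a glutathione peroxidase, a selenoprotein that reduces H2O2. The 8 bulk libraries of day 8 came from definitive endoderm left to differentiate spontaneously. Of these, 2 were of untreated WT and 2 of WT given 10 nM H2O2 by the labels. There were also 2 of untreated GPX2 KO and 2 of GPX2 KO given 100 pM sodium selenite, a selenium source. For this course the study's methods name a micromolar H2O2 dose instead. The other bulk libraries, 2 of WT and 2 of GPX2 KO without an added agent, were of day 6. The labels call the day-6 cells foregut endoderm, and the study describes them as the posterior foregut stage of its pancreatic differentiation. Their titles nevertheless carry the same ending as those of the spontaneous day-8 libraries, and the count table is named as spontaneous. For the directed course to SC-beta cells there was 1 single-cell library of each genotype at the pancreatic endoderm (PEN) stage of day 8 and at the SC-beta stage of day 21, and open chromatin was mapped by ATAC-seq in 2 libraries of each genotype at day 8 of spontaneous differentiation. The KO lines were clonal. The study's legends name 1 clone for the untreated KO bulk RNA and the PEN cells and another clone for the ATAC-seq. The labels do not say whether libraries of a group came from separate cultures, so p-values measure only the spread between these libraries, which may be technical.

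The bulk libraries held 4234408 to 8617728 counts at day 8 and 7315509 to 9725172 at day 6. GPX2 was present in the untreated day-8 libraries titled KO at 25.9 and 25.2 CPM, against 98.0 and 117 CPM in untreated WT. CPM is a gene's count scaled to a common library size. In the libraries titled KO with selenite GPX2 was at 37.6 and 40.5 CPM, and in H2O2-treated WT it was at 139 and 118 CPM. At day 6 it stood at 3.85 and 5.65 CPM in the libraries titled KO and at 17.7 and 7.58 CPM in WT. The study showed the deletion in its stem cell clones by PCR and sequencing. By western blot it found no GPX2 protein in KO pancreatic and endocrine progenitors. A deletion of every base of the gene would leave no reads. By its coordinates, the deletion given by the study covers the annotated gene except for a short stretch at the low-coordinate end. Where the reads fell was not tested. The genotype field of the labels reads WT for every day-8 bulk library. The bulk libraries titled KO are therefore called KO-labelled below, and each direction drawn from them rests on their titles. The single-cell and ATAC libraries called KO below are likewise so named by their labels, and their GPX2 signal is given beside them. The columns of the count table carry the marks 5 and 8, each once per group, and the libraries of mark 5 and mark 8 separated on the first principal component, which held 54.3% of the variance. The H2O2-treated library of mark 5 had the lowest mean correlation with the other day-8 libraries, 0.936 against 0.951 to 0.961 for the rest. Summed over 14 hepatic markers, of which none was at 0 counts in any library, day 8 ranged from 7709 CPM in that library to 22876 CPM in KO-labelled library 8, and the 10 endoderm markers summed to 1863 to 2181 CPM.

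Among the untreated WT libraries of day 8, levels per kilobase of gene model (RPKM) ordered the genes with the fatty acid genes on top. SCD, the desaturase that makes monounsaturated fatty acids, stood at 174 ± 11.1 RPKM (SD, n = 2), followed by FASN, the fatty acid synthase, at 96.3 ± 9.10 and ACLY, which makes cytosolic acetyl-CoA, at 95.2 ± 6.56. FADS2, a desaturase of polyunsaturated fatty acids, was next at 52.1 ± 7.15. Below them the levels ran without a gap, and neighbours such as FASN and ACLY lay within their spread. The lowest were MVK, the mevalonate kinase, at 2.62 ± 0.14 RPKM and CYP51A1, the lanosterol demethylase, at 0.64 ± 0.03. CYP51A1 shares its locus with another annotated gene and HSD17B7 and FDPS have close copies elsewhere in the genome, so the bulk counts of these genes are uncertain. At day 6 SCD was again first, at 152 ± 31.5 RPKM, and CYP51A1 last, at 0.35 ± 0.02.

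The first comparison asked what H2O2 did to these genes in WT cells at day 8. In its day-8 bulk RNA the study reported a cholesterol homeostasis gene set as enriched in H2O2-treated WT and GPX2 KO cells, each against WT. No gene set was tested here. In both H2O2-treated libraries most of the sterol and lipogenic genes lay above both WT libraries, but no gene passed the test without a block for the library mark. The 31 genes summed to 5201 and 5590 CPM in WT and to 8063 and 7482 CPM after H2O2. The median log2 fold change of the 31 was 0.49, against 0.0026 over all genes tested. The fitted change was above 0 for 30 of them, as it was for 50.4% of all genes. For 22 of the 31 both treated libraries were higher than both untreated ones, which held for 10.6% of all genes, and for 0 of the 31 were both lower (10.1% of all genes). In bulk libraries, more cells of a type that expresses these genes and more RNA per cell cannot be told apart.

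edgeR's quasi-likelihood test called 0 of the 31 genes and 0 of all 14470 (0%) at an adjusted p under 0.05, and DESeq2 and limma-voom also called 0. At an unadjusted p under 0.05 there were 14 members and 130 genes in all (0.898%). At the looser limits the study used for day 8, an unadjusted p of at most 0.05 and a log2 fold change of at least 0.5 in size, 11 members were higher and 0 lower, beside 0.456% of all genes that were higher and 0.346% that were lower. Because the genes were listed with earlier results of these data known, the counts describe them and test nothing about the list. The count at these limits changed with each library left out, in fits that leave 1 library in a group. Without the H2O2-treated library of mark 5 the median was 0.39, and without WT library 5 it was 0.34. Without WT library 8 the median was 0.62, and without the H2O2-treated library of mark 8 it was 0.58.

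**Figure D1:**
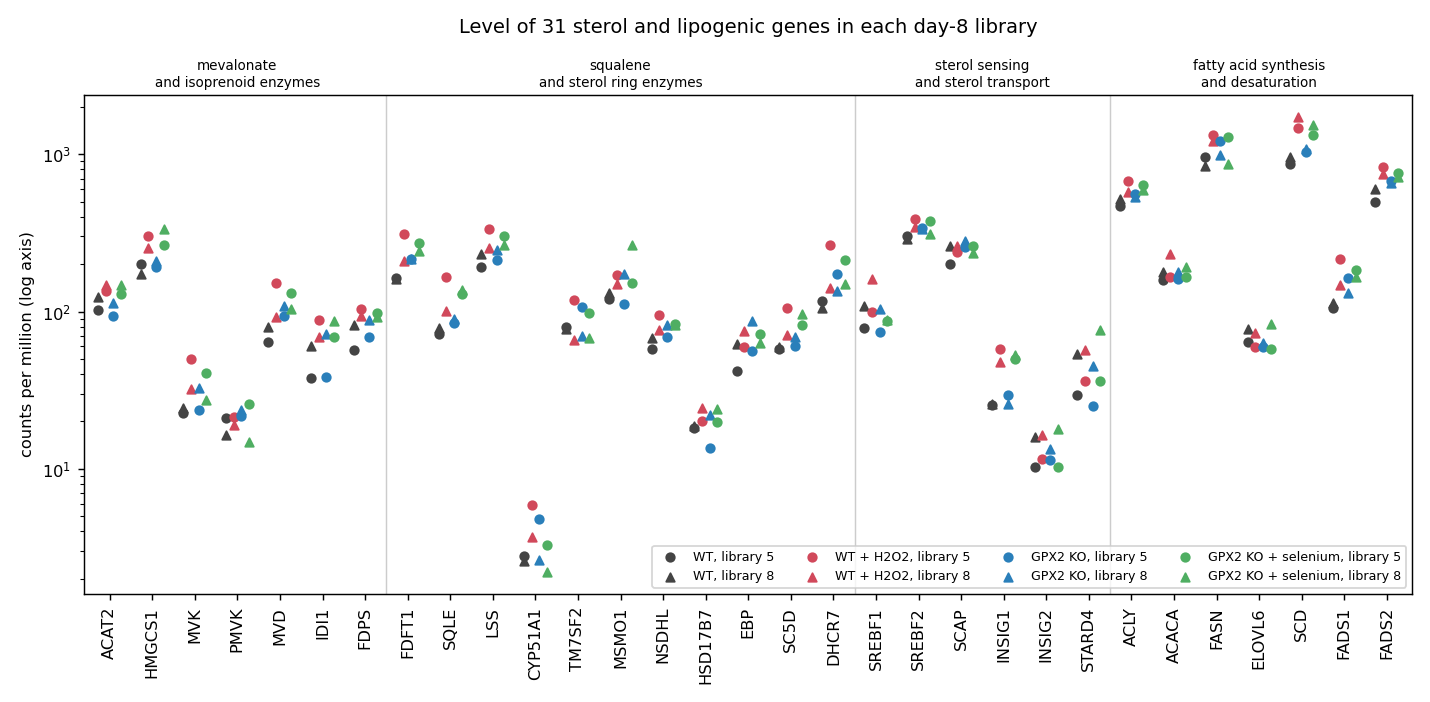
Level of each of the 31 genes (CPM, log axis) in the 8 day-8 bulk libraries, by role. Each point is 1 library, circles for mark 5 and triangles for mark 8, and KO means KO-labelled. The red H2O2 points lie above both black WT points for 22 genes, SCD, INSIG1, SQLE and DHCR7 among them.

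In the mevalonate and isoprenoid steps, 6 of 7 enzymes were higher in both treated libraries and 3 were at the study's limits. HMGCS1, which makes HMG-CoA, stood at 201 and 173 CPM in WT (marks 5 and 8) and at 304 and 253 CPM after H2O2. The groups did not overlap, and the log2 fold change was 0.58 (SE 0.19). MVD, the mevalonate diphosphate decarboxylase, had 64.4 and 79.4 CPM in WT and 152 and 92.5 CPM after H2O2. MVK had 22.7 and 24.5 CPM against 49.6 and 32.0 CPM. For MVK and MVD the mark 5 library carried most of the difference, and the fitted values were 0.79 (SE 0.31) and 0.77 (SE 0.27). IDI1, ACAT2 and FDPS also separated without overlap, with log2 fold changes of 0.68, 0.32 and 0.51, short of the limits on p. PMVK, the phosphomevalonate kinase, overlapped between the groups, with a log2 fold change of 0.11 (SE 0.31).

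Among the enzymes of squalene and the sterol rings, 9 of 11 were higher in both treated libraries and 4 were at the limits. FDFT1, the squalene synthase, stood at 163 and 160.0 CPM in WT and at 311 and 211 CPM after H2O2, a log2 fold change of 0.69 (SE 0.21). SQLE, the squalene epoxidase and a rate-controlling step of the pathway, had 72.2 and 78.8 CPM against 166 and 100.0 CPM. Its groups did not overlap, with the treated library of mark 5 far above the rest, and the log2 fold change was 0.81 (SE 0.24). DHCR7, which makes cholesterol from its last precursor, had 117 and 105 CPM in WT and 266 and 142 CPM after H2O2, and SC5D, which acts just before it, had 57.6 and 59.1 CPM against 105 and 71.2 CPM. Both were higher in each treated library, by 0.88 (SE 0.32) and 0.59 (SE 0.22) on the log2 scale. LSS, CYP51A1, MSMO1, NSDHL and HSD17B7 also did not overlap, at 0.47, 0.83, 0.35, 0.45 and 0.26, and TM7SF2 and EBP did, at 0.22 and 0.37.

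The 6 genes of sterol sensing and transport differed least as a group, with a median of 0.23. INSIG1, itself a target of the SREBPs that restrains them, was the exception. It stood at 25.3 and 26.0 CPM in WT and at 58.2 and 47.6 CPM after H2O2, a fold of 2.06 and a log2 fold change of 1.04 (SE 0.18), the highest of all 31. Both treated libraries were far above both untreated ones. Its unadjusted p was 0.000692 and its adjusted p 1.00 in edgeR's quasi-likelihood test. INSIG2, its paralogue, had 10.3 and 16.0 CPM against 11.6 and 16.4 CPM, so the groups overlapped. SREBF2 was slightly higher without overlap, at 302 and 287 CPM in WT and 385 and 344 CPM after H2O2 (0.31, SE 0.15). SREBF1, SCAP and the sterol carrier STARD4 overlapped, with values of 0.49, 0.11 and 0.16.

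In fatty acid synthesis and desaturation, 5 of 7 genes did not overlap and 3 were at the limits. SCD stood at 872 and 955 CPM in WT and at 1473 and 1719 CPM after H2O2. These are the largest differences in CPM among the 31 genes, the groups lay far apart, and mark 5 and mark 8 gave near-equal log2 differences of 0.76 and 0.85. The fitted log2 fold change was 0.81 (SE 0.14), with the smallest unadjusted p of the 31, 0.000599, and an adjusted p of 1.00 by edgeR's quasi-likelihood test. With the library mark as a block in the same fit SCD was called, at an adjusted p of 0.0156 by edgeR, as the 1 member among 26 genes (0.180%). Among the desaturases FADS1, which acts on polyunsaturated fatty acids, had 106 and 113 CPM against 216 and 148 CPM (0.73, SE 0.22), and FADS2 had 497 and 604 CPM against 824 and 751 CPM (0.52, SE 0.14). Both were higher in each treated library. FASN, at 957 and 837 CPM against 1317 and 1219 CPM, came to 0.4988 on the log2 scale, just under the limit of 0.5, with SREBF1 at 0.4865, while FDPS at 0.5135 passed the limit on size and missed the limit on p at 0.0526. ACLY did not overlap either, at 0.34. ACACA, the acetyl-CoA carboxylase, and ELOVL6, a fatty acid elongase, overlapped, at 0.23 and -0.09, the latter being the 1 member below 0.

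Taken within each mark, the H2O2-treated library was higher than the WT library in both pairs for 28 of the 31 genes, as it was for 24.4% of all genes. The difference was larger in mark 5 for 24 genes, and the medians were 0.60 in mark 5 and 0.27 in mark 8. MVD and IDI1 showed the widest gap, at 1.24 and 1.22 in mark 5 against 0.22 and 0.19 in mark 8. INSIG1, SCD, HMGCS1 and FASN were alike in both, with INSIG1 at 1.19 and 0.87 and HMGCS1 at 0.60 and 0.55.

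**Figure D2:**
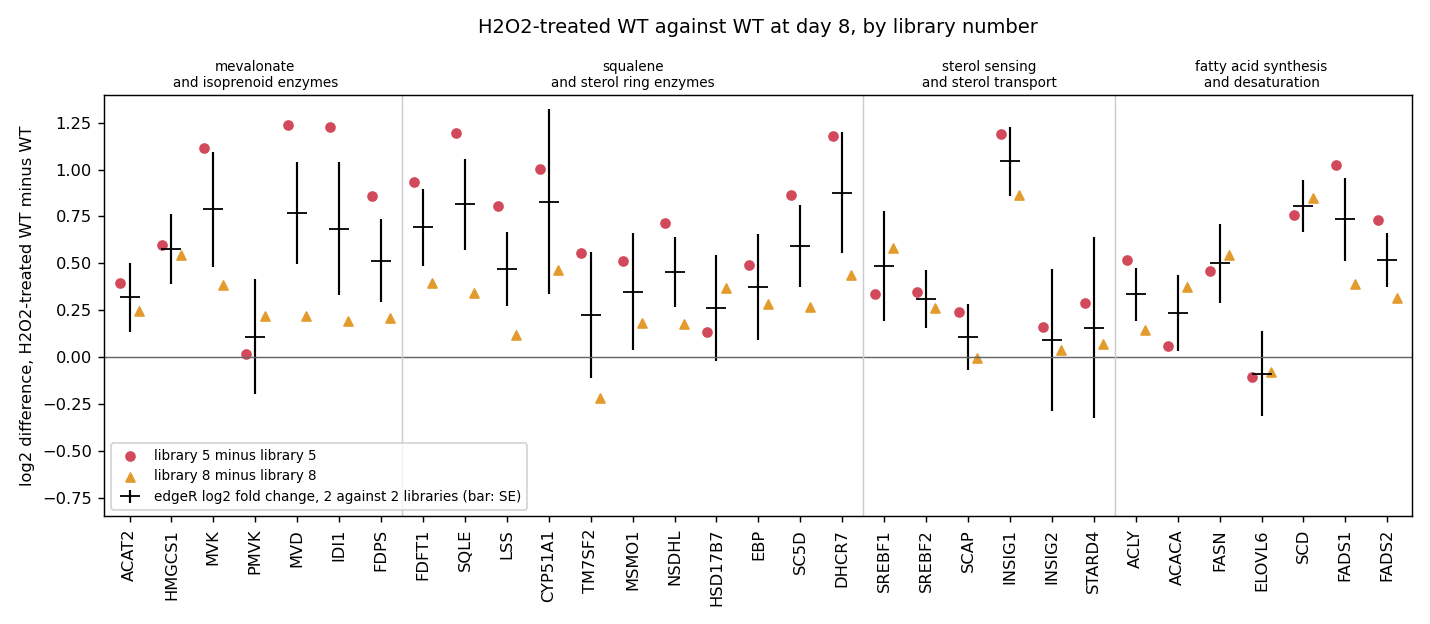
log2 difference of H2O2-treated WT minus WT at day 8 for each of the 31 genes, taken within mark 5 (red circles) and within mark 8 (orange triangles), with the edgeR log2 fold change over both libraries a group (black, bar: SE). INSIG1 and SCD are high in both marks, while MVD and IDI1 are high in mark 5 and near 0.2 in mark 8.

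The H2O2-treated library of mark 5, with the highest sum over the 31 genes, also stood apart in other markers. Its 7 pluripotency markers summed to 2025 CPM, against 971 CPM in the other treated library and 1093 and 722 CPM in WT, and NANOG and SOX2 were at 0 counts in WT library 8. In this comparison 7 of 7 pluripotency markers had a log2 fold change above 0, with a median of 1.78, and 0 passed the test, while with the mark as a block 3 of them were called, POU5F1, NANOG and L1TD1. All 8 proliferation markers were above 0 as well, with a median of 0.23 and 0 without overlap, at 692 and 284 CPM in WT and 597 and 565 CPM after H2O2. The 10 mesenchyme markers summed to 274 CPM in the treated library of mark 5, against 812 CPM in the other treated library and 1178 and 540 CPM in WT. Hepatic markers summed to 7709 and 18370 CPM after H2O2 and to 10707 and 18444 CPM in WT. The part of these differences in the result for the sterol and lipogenic genes was not tested.

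Genes of the surrounding pathways, counted by lists chosen by role, had medians closer to 0. Of 15 tested other genes of sterol synthesis and uptake, 0 passed the test, 2 were at an unadjusted p under 0.05 and 1 at the study's limits, 4 were higher without overlap and 3 lower, and the median log2 fold change was 0.19. Of 25 other genes of fatty acid and glycerolipid synthesis the median was 0.11, and 1 of them, the acetyl-CoA synthetase ACSS2, at 0.60 (SE 0.17) and named after its value was seen, was under 0.05 before adjustment. The 12 genes of sterol efflux, storage and oxidation had a median of -0.05 and the 13 genes of fatty acid oxidation a median of 0.06, with 0 genes of either list at an unadjusted p under 0.05.

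The promoters of these genes are shown because most members were higher together in the treated libraries. RefSeq promoter windows of GRCh38, 250 bases before to 50 bases after each start, were matched for 27 of the 31 members by symbol, and ACAT2, FDFT1, SQLE and FASN had none. Of the 27, 1 (3.70%) held TCACNCCAC, the core of the textbook sterol regulatory element, against 1.09% of 27305 genes with a window and 1.13% of the 11019 of them that were tested. CCAAT, the NF-Y box, was in 19 (70.4%), against 37.0% of all and 41.3% of tested genes, and 2 or more copies were in 13 (48.1%), against 11.5% and 15%. GGGCGG, the GC box, was in 26 (96.3%), against 46.2% and 74.4%. The 3 motifs were searched on both strands, overlapping matches were counted singly, and any window of a gene counted. A match describes the letters and does not show that a factor binds there.

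The 250 bases before the start follow for 6 members, 5′ to 3′ on the gene's strand, with matches to the 3 motifs or their reverse complements in capitals. SREBF2 (chr22:41832855-41833104, plus strand) is the 1 member with TCACNCCAC. HMGCS1 (chr5:43313413-43313662, minus strand), INSIG1 (chr7:155297628-155297877, plus), SCD (chr10:100346983-100347232, plus) and DHCR7 (chr11:71448394-71448643, minus) were at the study's limits after H2O2, and ELOVL6 (chr4:110198616-110198865, minus) is the member below 0.
SREBF2: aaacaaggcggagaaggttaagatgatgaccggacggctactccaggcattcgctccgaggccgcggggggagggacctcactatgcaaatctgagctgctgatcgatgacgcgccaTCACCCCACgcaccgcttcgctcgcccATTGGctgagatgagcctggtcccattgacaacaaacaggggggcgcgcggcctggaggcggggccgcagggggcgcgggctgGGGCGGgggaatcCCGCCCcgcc
HMGCS1: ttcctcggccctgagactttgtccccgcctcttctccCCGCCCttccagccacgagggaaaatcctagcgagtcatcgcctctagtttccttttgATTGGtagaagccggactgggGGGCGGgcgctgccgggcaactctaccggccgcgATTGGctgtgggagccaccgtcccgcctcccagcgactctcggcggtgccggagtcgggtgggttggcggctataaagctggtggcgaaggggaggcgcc
INSIG1: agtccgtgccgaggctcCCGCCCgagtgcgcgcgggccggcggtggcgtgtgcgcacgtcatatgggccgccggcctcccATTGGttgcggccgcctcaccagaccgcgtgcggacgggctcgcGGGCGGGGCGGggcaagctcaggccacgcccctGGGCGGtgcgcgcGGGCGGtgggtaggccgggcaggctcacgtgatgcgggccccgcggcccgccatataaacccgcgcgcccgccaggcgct
SCD: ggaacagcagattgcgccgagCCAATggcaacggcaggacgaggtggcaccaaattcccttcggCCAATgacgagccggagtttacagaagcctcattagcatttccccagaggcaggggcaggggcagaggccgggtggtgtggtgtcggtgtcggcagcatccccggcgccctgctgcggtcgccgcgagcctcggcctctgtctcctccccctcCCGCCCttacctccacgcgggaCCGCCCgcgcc
DHCR7: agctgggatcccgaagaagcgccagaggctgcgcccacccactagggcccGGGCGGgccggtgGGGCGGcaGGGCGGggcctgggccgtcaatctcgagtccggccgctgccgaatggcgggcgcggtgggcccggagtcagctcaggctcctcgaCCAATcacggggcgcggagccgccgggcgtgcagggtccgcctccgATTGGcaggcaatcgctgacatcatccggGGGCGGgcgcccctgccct
ELOVL6: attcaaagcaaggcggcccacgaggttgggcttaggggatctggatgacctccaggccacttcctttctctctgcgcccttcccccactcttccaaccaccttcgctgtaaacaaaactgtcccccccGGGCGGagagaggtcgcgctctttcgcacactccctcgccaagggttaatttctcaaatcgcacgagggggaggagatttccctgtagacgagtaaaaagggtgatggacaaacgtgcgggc
HMGCS1, SCD and DHCR7 each carried 2 CCAAT matches and INSIG1 carried 1, with 2, 2, 4 and 5 GGGCGG matches. ELOVL6 had no CCAAT match and 1 GGGCGG match. Among the others, MVK and NSDHL had 5 CCAAT matches each and FADS1 and FADS2 had 0.

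ATAC peaks, which mark open chromatin, covered the start of all 27 members in both genotypes of day 8, as they did for 95.6% of tested genes in WT and 95.4% in KO. The authors called the peaks on merged libraries, so the genotypes could not be tested. Fold enrichment over these starts ran from 2.04 at TM7SF2 to 4.53 at SC5D in WT, with a median of 3.04, and from 2.22 at SREBF1 to 4.40 at SC5D in KO, with a median of 3.16. Over all tested genes the medians were 3.28 and 3.33. The annotated gene GPX2 itself was touched by 2 peaks in WT, the highest of 2.76-fold, and by 1 peak in KO, of 2.73-fold. By its coordinates, the study's deletion covers this gene except for a short stretch at the low-coordinate end. Whether the KO peak lay over the deleted bases or beside them was not tested. At the SCD start the fold was 2.80 in WT and 2.92 in KO, and at the INSIG1 start 2.52 and 2.37. None of the ATAC libraries analysed here was of H2O2-treated cells.

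The second comparison set KO-labelled against WT libraries at day 8. Most of the 31 genes lay slightly higher in KO-labelled cells and none passed the test. The summed level was 6244 and 6266 CPM against 5201 and 5590 CPM in WT, the median log2 fold change was 0.18 against -0.0020 over all genes, and 24 of 31 were above 0, as were 49.7% of all genes. edgeR called 0 members and 0 genes (0%), with 0 members and 177 genes (1.22%) at an unadjusted p under 0.05, and DESeq2 called 0 members and 2 genes. At the study's limits there were 0 members, beside 0.643% of all genes that were higher and 0.415% that were lower. Both KO-labelled libraries were higher than both WT libraries for 13 members, against 13.5% of all genes, and lower for 1, ELOVL6, against 13%. FDFT1 was the clearest, at 217 and 217 CPM against 163 and 160.0 CPM (0.43, SE 0.21). FADS1 stood at 162 and 132 CPM against 106 and 113 CPM (0.43, SE 0.22) and MVD at 93.8 and 108.2 CPM against 64.4 and 79.4 CPM (0.49, SE 0.27). FADS2 (0.28, SE 0.14) and EBP, the sterol isomerase (0.46, SE 0.28, with overlap), complete the 5 of smallest p. INSIG1, at 29.2 and 25.9 CPM, lay close to WT. Hepatic markers summed to 11392 and 22876 CPM in these KO-labelled libraries, and their part in the result was not tested.

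Selenium was the question of the third comparison, in KO-labelled cells. With selenite, INSIG1 and 11 enzymes lay above both untreated libraries, and no gene passed the test. edgeR called 0 members and 0 genes (0%), DESeq2 and limma-voom also called 0, and 4 members and 144 genes (0.995%) were at an unadjusted p under 0.05. INSIG1 stood at 29.2 and 25.9 CPM without and at 49.6 and 52.6 CPM with selenite, a log2 fold change of 0.89 (SE 0.18, unadjusted p 0.00172 and adjusted p 1.00 by edgeR). HMGCS1 had 192 and 210 CPM without and 266 and 335 CPM with selenite (0.58, SE 0.19), and SQLE had 84.6 and 90.2 CPM without and 129 and 137 CPM with it (0.61, SE 0.24). In all of these genes both treated libraries were above both untreated ones, and they are the 3 members at the study's limits, beside 0.352% of all genes that were higher. SCD had 1034 and 1082 CPM without and 1325 and 1532 CPM with selenite (0.43, SE 0.14), and ACAT2, the acetyl-CoA acetyltransferase, came to 0.43 (SE 0.18).

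Over the 31 genes the median was 0.24 with selenite, against 0.015 over all genes, 24 were above 0 (52.3% of all genes), and 12 did not overlap, all higher, against 10.8% of all genes. With 1 library left out the median ranged from 0.16 to 0.26. The number at the limits also changed each time, in fits that leave 1 library in a group. The sum of hepatic markers was 15244 and 22305 CPM with selenite, and its part was not tested.

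The H2O2 and selenite comparisons share no library. The 12 members higher without overlap with selenite, namely ACAT2, HMGCS1, FDPS, FDFT1, SQLE, LSS, SC5D, INSIG1, ACLY, SCD, FADS1 and FADS2, were all among the 22 after H2O2, which is 12 of 12 of the selenite list and 12 of 22 of the H2O2 list. Over all genes 274 (1.89%) were higher without overlap in both, which is 17.6% of those higher with selenite and 17.8% of those higher after H2O2, while 22 of the 31 members were already among the latter. Across the 31 genes the 2 sets of log2 fold changes had a Pearson r of 0.30 and a Spearman rho of 0.35, given as a description since genes are not independent. DHCR7, at 0.88 after H2O2, had 212 and 150.4 CPM with selenite against 172 and 135 CPM without.

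**Figure D3:**
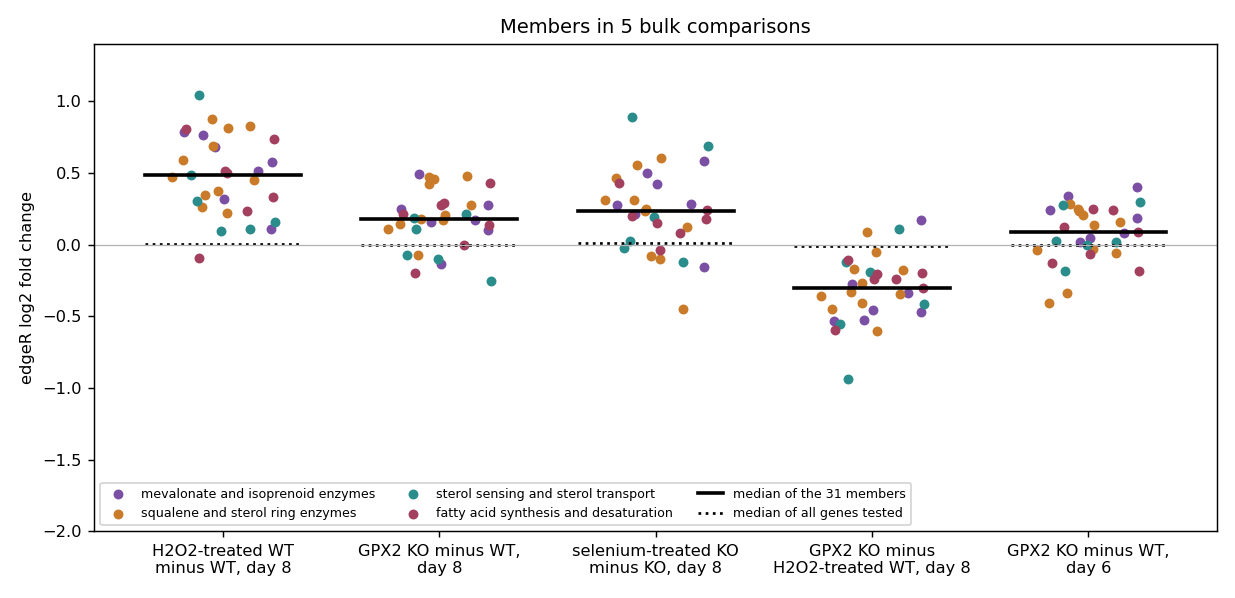
edgeR log2 fold changes of the 31 genes in the 5 bulk comparisons, coloured by role, with the median of the 31 (solid line) and of all genes tested (dotted line). The median of the 31 is 0.49 after H2O2, 0.18 and 0.09 in KO-labelled against WT libraries at days 8 and 6, 0.24 with selenite and -0.30 in KO-labelled against H2O2-treated WT libraries.

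KO-labelled cells against H2O2-treated WT cells at day 8 use the same libraries as the comparisons above and are given side by side with them. The median log2 fold change was -0.30, against -0.011 over all genes, 28 of 31 were below 0 while 48.2% of all genes were above it, and 12 were lower without overlap, against 12.7% of all genes. edgeR called 0 members and 1 gene (0.00691%), and 5 members and 1.67% of all genes were under 0.05 before adjustment. INSIG1 (-0.94, SE 0.18), SCD (-0.59, SE 0.14) and SQLE (-0.60, SE 0.24) were lower at the study's limits, beside 0.518% of all genes, with 0 members higher beside 0.974%, and HMGCS1 (-0.47, SE 0.19) and ACAT2 (-0.45, SE 0.18) follow. Without the H2O2-treated library of mark 5 the median was -0.15. Markers of other kinds also differed. All 8 proliferation markers had values below 0 (median -0.40, 6 of 8 without overlap), with sums of 487 and 367 CPM in KO-labelled and 597 and 565 CPM in treated WT libraries, as did 7 of 7 pluripotency markers (median -1.25, with sums of 1272 and 779 CPM against 2025 and 971 CPM), and none passed the test. Their part in the result was not tested.

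At day 6 the KO-labelled and WT libraries differed little in these genes. The summed level was 3442 and 3560 CPM against 3195 and 3559 CPM, and the median log2 fold change was 0.09, against -0.0052 over all genes. edgeR called 56 genes (0.383%) and 0 members at an adjusted p under 0.05, and 7 members and 1398 genes (9.55%) were under 0.05 before adjustment. Both KO-labelled libraries were higher than both WT libraries for 10 members, against 20.0% of all genes, and lower for 3, against 19.8%. At the study's limits there were 0 members, beside 0.533% of all genes higher and 0.267% lower, and 21 members lay above 0 beside 48.8% of all genes. SC5D was the most different, at 119 and 106 CPM in KO-labelled and 142 and 158 CPM in WT libraries, a log2 fold change of -0.41 (SE 0.10, adjusted p 0.154 by edgeR). FASN stood at 563 and 560.0 CPM against 488 and 456 CPM (0.25, SE 0.08), SREBF2 at 189.7 and 187 CPM against 163 and 148 CPM (0.28, SE 0.08) and DHCR7 at 88.7 and 89.5 CPM against 72.4 and 77.7 CPM (0.25, SE 0.09). FDFT1 came to 0.24 (SE 0.09). Their adjusted p-values in edgeR's test were 0.274, 0.275, 0.398 and 0.419. Calls at day 6 depended on the libraries: with 1 left out, edgeR called 169 to 928 genes and 0 to 4 members, the highest without the WT library of mark E. With the mark as a block it called 842 genes (5.75%) and 4 members, SC5D lower and HMGCS1, FASN and SREBF2 higher. Hepatic markers summed to 3624 and 5821 CPM in KO-labelled and to 2471 and 3487 CPM in WT libraries, and their part was not tested.

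In single cells each genotype had 1 library per stage, so there is no test, and intervals cover counting error only. At the PEN stage 1701 WT cells held 2869485 UMIs (median 1040 a cell) and 1837 KO cells held 2602874 (median 836). GPX2 itself had 4 UMIs in WT and 1 in KO. The 31 genes took 0.169% of UMIs in WT (exact 95% interval 0.164 to 0.173%) and 0.138% in KO (0.134 to 0.143%), a ratio of 0.82 (0.78 to 0.86). Of 26 genes with at least 50 UMIs over both libraries, the interval of the KO over WT ratio was below 1 for 12, against 18% of 10495 genes, and above 1 for 1, against 15.5%. The median ratio was 0.74, against 0.98 over all genes.

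SC5D, the lowest, had 34.5 CPM in WT and 14.98 CPM in KO, a ratio of 0.43 (0.29 to 0.64). SCD had 182 CPM in WT and 83.0 CPM in KO, a ratio of 0.46 (0.39 to 0.54), and HMGCS1 had 127 CPM and 59.9 CPM, a ratio of 0.47 (0.39 to 0.57). IDI1, the isoprenoid isomerase (0.47, 0.31 to 0.70), and SREBF1 (0.50, 0.33 to 0.73) were next, followed by INSIG1 (0.50, 0.29 to 0.83). At the other end were the sensing genes SCAP (1.25, 0.96 to 1.62), SREBF2 (1.18, 1.04 to 1.35) and INSIG2 (1.12, 0.76 to 1.67), with FDPS (1.12, 0.85 to 1.49) and LSS, the lanosterol synthase (1.02, 0.76 to 1.38). By role, the ratio of summed UMIs was 0.70 for the mevalonate enzymes, 0.66 for the sterol ring enzymes, 0.84 for the fatty acid genes and 1.04 for sensing and transport. The neighbouring lists were lower too, with ratios of 0.83 (0.77 to 0.91) for the other sterol synthesis and uptake genes, 0.83 (0.79 to 0.87) for sterol efflux, storage and oxidation and 0.95 (0.90 to 1.00) for the other fatty acid genes, while fatty acid oxidation was at 1.10 (1.00 to 1.199). Among markers, the summed ratio was 0.73 (0.68 to 0.79) for endocrine progenitors, 0.75 (0.64 to 0.87) for neural, 0.93 (0.89 to 0.97) for endoderm and 0.87 (0.79 to 0.96) for hepatic genes. Delta cell genes were at 0.60 (0.50 to 0.71) and pluripotency genes at 0.83 (0.76 to 0.91). Intestinal genes, at 1.398 (1.19 to 1.64), and endothelial and blood genes, at 1.12 (1.04 to 1.22), were higher. The intervals of the other marker lists included 1. Only 2 of 6 endocrine progenitor, 2 of 5 delta cell, 1 of 6 intestinal and 1 of 6 endothelial and blood genes reached 50 UMIs. NEUROD1 was at 0 UMIs in both libraries, NEUROG3 and PAX4 in WT and ALB in KO. The KO library was the shallower one, and the part of depth or of these markers in the ratios was not tested.

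At the SC-beta stage the order of the genotypes was another. The 6128 WT cells held 37074512 UMIs (median 5638 a cell) and the 5611 KO cells 46596224 (median 8061). GPX2 had 109 UMIs in WT, or 2.94 CPM (2.41 to 3.55), and 46 in KO, or 0.99 CPM (0.72 to 1.32), so the library labelled KO also held transcripts of the gene. The 31 genes took 0.175% of UMIs in WT (exact 95% interval 0.173 to 0.176%) and 0.181% in KO (0.180 to 0.183%), a ratio of 1.04 (1.03 to 1.05). The interval of the ratio was above 1 for 13 members, against 26.2% of 19273 genes, and below 1 for 8, against 40.7%, with a median of 1.03 against 0.94.

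INSIG1 had the highest ratio, from 20.9 CPM in WT to 36.6 CPM in KO (1.75, 1.61 to 1.91). FASN followed with 30.9 and 45.5 CPM (1.47, 1.37 to 1.59), and HMGCS1 with 91.3 and 129 CPM (1.41, 1.35 to 1.47). DHCR7 (1.37, 1.23 to 1.52) and EBP (1.27, 1.18 to 1.36) complete the 5 highest. INSIG2 had the lowest, at 30.0 CPM in WT and 19.8 CPM in KO (0.66, 0.61 to 0.72), so the INSIG genes lay on opposite sides of 1. The next lowest were ELOVL6 (0.85, 0.81 to 0.89), SQLE (0.87, 0.83 to 0.92), SCD (0.88, 0.83 to 0.92) and HSD17B7, a ketoreductase of sterol synthesis (0.89, 0.80 to 0.99).

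**Figure D4:**
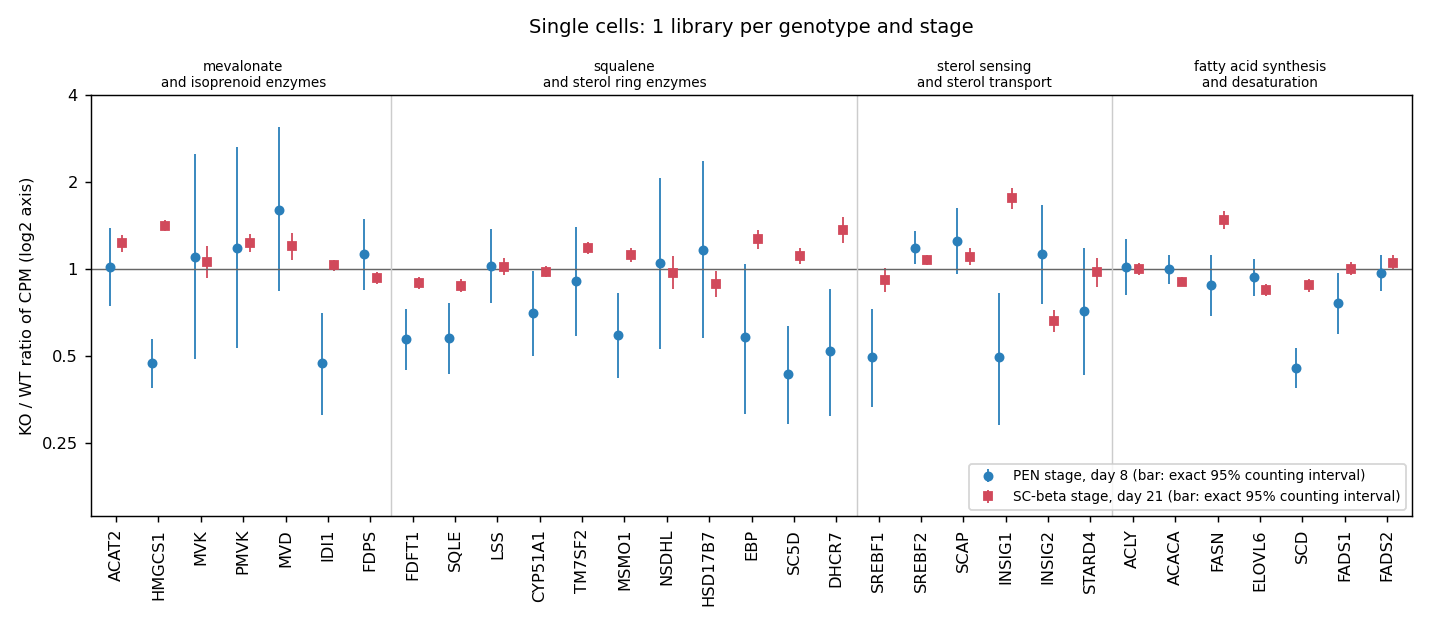
Ratio of KO over WT CPM (log2 axis) for each of the 31 genes in the single-cell libraries, at the PEN stage of day 8 (blue circles) and the SC-beta stage of day 21 (red squares), with exact 95% counting intervals. There is 1 library per genotype and stage. HMGCS1 and INSIG1 lie below 1 at the PEN stage, at 0.47 and 0.50, and above 1 at the SC-beta stage, at 1.41 and 1.75.

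The WT and KO cells of the SC-beta stage were not of the same make-up. Hepatic markers summed to 2199 CPM in WT and 6474 CPM in KO, mesenchyme markers to 13.97 and 136 CPM and intestinal markers to 137 and 284 CPM. Beta cell markers summed to 17422 and 24417 CPM and alpha cell markers to 2788 and 3966 CPM. Delta cell markers summed to 110 and 271 CPM and enterochromaffin markers to 472 and 546 CPM. Lower in KO were endocrine progenitor markers, at 986 and 818 CPM, and proliferation markers, at 323 and 244 CPM. So were neural markers, at 810 and 692 CPM, and pluripotency markers, at 240 and 126 CPM. The part of these markers in the ratios was not tested. The level of the 31 genes was therefore also taken by cluster. Clustering without the members and the other lipid genes gave 19 clusters, and cells of the WT and KO libraries shared 7 barcodes. Clusters were named from their leading genes and fixed markers where these allowed it, and sizes were not compared between genotypes.

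Summed over the 31 genes, the clusters ranged from 984 CPM in cluster 6, led by MT1G, to 3636 CPM in cluster 12, which was enterochromaffin-like by LMX1A, TPH1 and SLC18A1. The 7 highest clusters all carried endocrine genes. Cluster 10, led by GC and SCG2, had 2915 CPM, the beta cell-like cluster 4, with INS, SLC30A8 and ERO1B, had 2914 CPM, cluster 13, led by SST, had 2690.0 CPM, and cluster 8, led by GCG and PYY, had 2201 CPM. The endocrine progenitor-like cluster 7, led by CD96 and with NEUROG3, had only 1160 CPM, the proliferating-like cluster 1390 CPM, the hepatic-like cluster 16, with AFP and FGB, 1291 CPM and the mesenchyme-like cluster 1420 CPM. As a description, HMGCS1 stood at 393 CPM in the enterochromaffin-like and 209 CPM in the beta cell-like cluster, and at 28.1 CPM in cluster 0, led by CLIC5. INSIG1 stood at 114, 59.0 and 5.2 CPM in the same clusters and SCD at 133, 184 and 17.3 CPM. INSIG2 did not follow them, at 21.7, 24.8 and 33.9 CPM, and SCAP was near level, at 39.9, 35.0 and 40.6 CPM.

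**Figure D5:**
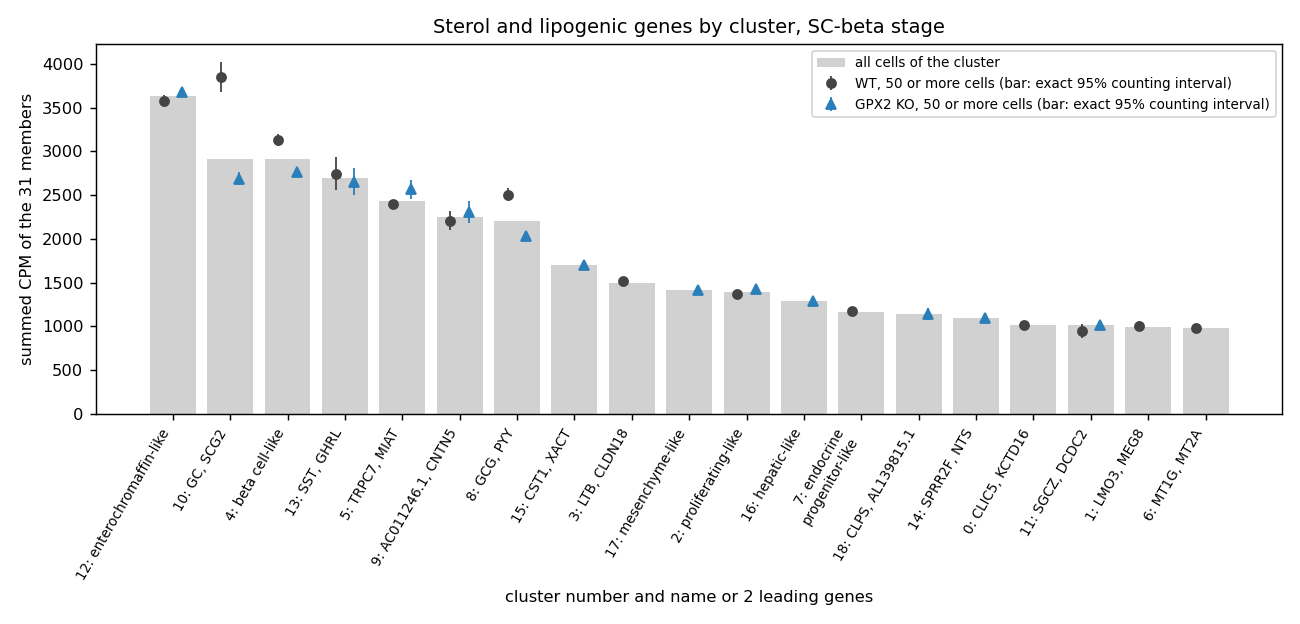
Summed CPM of the 31 genes in the 19 clusters of the SC-beta stage (grey bars), with the WT (black circles) and KO (blue triangles) cells apart where a cluster held at least 50 of that genotype, and exact 95% counting intervals. The enterochromaffin-like cluster is highest at 3636 CPM, and the WT cells of clusters 10 and 8 lie above the KO cells.

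Among the 9 clusters with at least 50 cells of each genotype, the KO over WT ratio of the summed level ran from 0.70 to 1.08, with a median of 1.03. The side of 1 on which this median lay depended on the clustering, with 0.96 over 6 clusters at a resolution of 0.5 and 0.87 over 9 clusters at 1.5, where the intervals of 6 lay below 1 and of 2 above. It was 0.70 (0.66 to 0.74) in cluster 10, 0.81 (0.78 to 0.85) in the GCG cluster 8 and 0.88 (0.86 to 0.91) in the beta cell-like cluster. The intervals of 2 clusters lay above 1, the enterochromaffin-like cluster at 1.03 (1.00 to 1.05) and cluster 5, led by TRPC7, at 1.07 (1.02 to 1.12). Inside the enterochromaffin-like cluster the genes went different ways, with INSIG1 at 61.4 CPM in WT and 146 CPM in KO (2.38, 2.01 to 2.82), HMGCS1 at 275 and 464 CPM (1.69, 1.55 to 1.83) and SCD at 183 and 103 CPM (0.56, 0.50 to 0.64). SCD was also lower in KO cells of the beta cell-like cluster (0.75, 0.67 to 0.84), the GCG cluster (0.59, 0.49 to 0.71) and cluster 10 (0.43, 0.34 to 0.54). In the beta cell-like cluster INSIG1 had 48.4 CPM in WT and 66.3 CPM in KO (1.37, 1.11 to 1.70) and INSIG2 39.0 and 15.01 CPM (0.39, 0.28 to 0.53). Each of these is a comparison of 1 library with 1 library.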

How the data were processed

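The authors deposited read counts per gene for the bulk libraries, made from TruSeq paired-end reads with fastp, STAR and featureCounts 2.0.1 on Ensembl annotation 108 (GRCh38), with no strand option stated. Here genes were filtered with filterByExpr, scaled by TMM and tested with edgeR 4.0.16 (R 4.3.3) in 1 fit of the 8 day-8 libraries, which share 1 spread, and 1 fit of the 4 day-6 libraries, with Benjamini-Hochberg adjustment over all genes tested. The pooled biological coefficient of variation was 0.302 at day 8 and 0.0949 at day 6. Levels are CPM, and RPKM where genes are compared. The steps were tested on simulated data.

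The study's limits combined a log2 fold change of 0.5 or more in size with an unadjusted p up to 0.05 (day 8) or an adjusted p up to 0.1 (day 6). The H2O2 dose is that of the labels. For spontaneous differentiation the study's methods give a micromolar dose, while its figure legends give the nanomolar one. By the study's account H2O2 was added some days before harvest. Both untreated KO columns of day 8 read ko1 while the titles read ko1 and ko2.

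The PEN matrices (ScaleBio) were deposited as estimated counts, with 10.2 and 10.5% of the values not whole, and were rounded. The SC-beta matrices (10x, Cell Ranger 7.1.0) were deposited as UMI counts. PEN cells had at least 200 genes and under 5% mitochondrial UMIs. SC-beta cells had 1500 to 5000 genes and under 15%. The filters left 1701 of 1709 and 1837 of 1849 PEN barcodes, fewer than the cells the study states, and 6128 of 8911 and 5611 of 1285152 SC-beta barcodes, of which the first equals the study's number and the second exceeds it by 1. Doublets were not removed. Ratios carry exact conditional 95% intervals. Cells were clustered with scanpy 1.11.5 (10000 counts a cell, 2000 variable genes, 30 components, 20 neighbours, Leiden resolution 1). Peaks were deposited by the authors from MACS2 on merged libraries. Their signal column, a fold enrichment, was used, and the deposited score, −log10 p and −log10 q columns give no value in the text.

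The members and the lists of other lipid genes and markers were chosen with earlier results of these data known. Every member is described after H2O2. Elsewhere the 5 of smallest p, or the 5 highest and 5 lowest ratios among genes with at least 50 UMIs, are named. The alternatives were RLE scaling, DESeq2 1.42.0, limma-voom (limma 3.58.1), the 2 groups alone, no filter beyond 1 count, the library mark as a block, the study's limits, each library left out, another filter on cells, no barcodes over 10 times the median depth, a mean over cells, Leiden resolutions of 0.5 and 1.5, peaks within 1000 bases and peaks of at least 4-fold. Single values of some genes in the lists of other lipid genes are not reported here.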

Additional observations from a re-analysis of the deposited data

Results flagged for a closer look

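KO over WT ratios of 5 members lay on opposite sides of 1 at the 2 single-cell stages, with both counting intervals clear of 1. HMGCS1 was at 0.472 at the PEN stage and 1.41 at the SC-beta stage, INSIG1 at 0.497 and 1.75, DHCR7 at 0.520 and 1.37, MSMO1, a sterol methyl oxidase, at 0.594 and 1.12, and SC5D at 0.434 and 1.11. How many of all genes changed sides in this way was not counted. Intervals clear of 1 were common among all genes at both stages, as given above, so the 5 are not shown to be particular to the list. The difference between stages was not tested, each stage had 1 library per genotype, and the stages were run on different platforms.

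In bulk, 3 members differed between KO-labelled and WT libraries without overlap in opposite directions at day 6 and day 8. SC5D had a log2 fold change of -0.41 at day 6 and 0.15 at day 8, ELOVL6 had 0.12 and -0.20, and FADS2 had -0.068 and 0.28. How many of all genes did so was not counted. Groups without overlap were common among all genes at both days, as given above, so the 3 are not shown to be particular to the list. The difference between days was not tested, and none of these values passed the test at either day. The study describes the day 6 cells as part of its pancreatic differentiation and those of day 8 as spontaneous. If so, day and protocol cannot be told apart here.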

How the results depend on the processing

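In the H2O2 comparison 0 genes were called by edgeR with either scaling, DESeq2, limma-voom or the 2 groups alone. Without a filter beyond 1 count edgeR called 136 genes and 1 member (SCD, adjusted p 0.0118) after H2O2, 31 genes in KO-labelled against WT (member median 0.15), 19 with selenite, 33 in KO-labelled against H2O2-treated WT, and 580 genes and 2 members at day 6. DESeq2 called 2 genes in KO-labelled against WT at day 8, 3 against H2O2-treated WT and 149 at day 6, and limma-voom and the 2 groups alone called 0 against H2O2-treated WT. At the study's limits there were 116 genes and 11 members after H2O2, 153 genes in KO-labelled against WT, 119 genes and 3 members with selenite, 216 genes and 3 members against H2O2-treated WT, and 117 genes at day 6.

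With the library mark as a block, edgeR called 26 genes and 1 member (SCD, adjusted p 0.0156) after H2O2, 2 genes in KO-labelled against WT at day 8, 3 against H2O2-treated WT, and 842 genes and 4 members at day 6. Deviations of same-marked libraries correlated at 0.33 to 0.68 at day 8 and 0.24 at day 6, but the labels do not say what a mark stands for and each comparison has 2 pairs, so the mark is not treated as a pairing. The block changed no other call of a member.

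With 1 library left out, the member median ranged from 0.34 to 0.62 after H2O2, 0.14 to 0.25 in KO-labelled against WT at day 8, 0.16 to 0.26 with selenite, -0.39 to -0.15 against H2O2-treated WT (0 genes called each time) and 0.072 to 0.13 at day 6 (169 to 928 genes and 0 to 4 members called). Members at the study's limits, recounted in this way as a choice made after seeing the data, ranged from 3 to 13 after H2O2 and from 1 to 4 with selenite. After H2O2 the log2 fold change of 7 overlapping members crossed 0, and without 1 library it ran from -0.061 (without WT library 8) to 0.30 for PMVK, from -0.25 (without treated library 5) to 0.58 for TM7SF2, from -0.067 (without WT library 5) to 0.31 for SCAP, from -0.19 (without WT library 5 or treated library 8) to 0.44 for INSIG2, from -0.21 (without the same libraries) to 0.66 for STARD4, from -0.029 (without treated library 8) to 0.46 for ACACA, and from -0.25 to 0.053 (without WT library 8, and 0.051 without treated library 5) for ELOVL6. The cause was not tested.

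In single cells, 2 PEN members had an interval above 1 without barcodes of very high depth, and the SC-beta ratio was 1.06 under the other filter on cells and 1.06 as a mean over cells. The highest cluster was at 3483 CPM at resolution 0.5 and 3904 CPM at 1.5. Peaks of at least 4-fold covered the start of 2 members in WT and 2 in KO. By depth, CYP51A1 rested on the fewest bulk counts, 11 to 26 a library at day 8, and 26 of the 31 members reached 50 UMIs at the PEN stage.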
